A study of Mus musculus with 20 samples.

Results

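In this study 10 genes that mark astrocytes were followed through 20 cortical RNA-seq libraries, 5 that mark the identity of the cell (Aldh1l1, Aqp4, Gja1, Sox9 and S100b) and 5 that are raised when astrocytes become reactive (Gfap, Vim, Serpina3n, Osmr and Cd44). They were chosen by name, with earlier results of these data known, and all 10 were among the 23413 genes counted. The libraries came from the cortex of 20 APOE4 knock-in mice, in which human APOE4 replaces mouse Apoe. Every mouse carried this allele, so no wild-type or APOE3 animal was compared. The mice were 22 months old and had been fed a control diet (CD, coded SD in the labels) or an isocaloric ketogenic diet (KD) for 12 months, from 10 months of age. The 4 groups were CD females (n = 5), KD females (n = 4), CD males (n = 5) and KD males (n = 6), with 1 library per mouse, and mice are named here by their animal numbers. The libraries carried 2 ranges of library numbers, called library series 1 and library series 2 here, with 10 libraries each and mice of every group in both.

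Astrocytes clear glutamate, carry potassium and water between neurons and vessels, and supply neurons with metabolic substrates. Aldh1l1 encodes a folate enzyme used as a pan-astrocyte marker. Aqp4 encodes the water channel of perivascular endfeet, Gja1 encodes connexin 43 of the gap junctions between astrocytes, Sox9 encodes a transcription factor of the lineage, and S100b encodes a calcium-binding protein that some oligodendrocyte-lineage cells also make. On injury, inflammation or ageing, astrocytes raise the intermediate filament proteins GFAP and vimentin, the serine protease inhibitor Serpina3n, the oncostatin M receptor subunit OSMR and the hyaluronan receptor CD44. STAT3, activated downstream of receptors such as OSMR and GP130, is a known activator of Gfap. Vim and Cd44 are also expressed by vascular, meningeal and immune cells. In bulk tissue, fewer cells of a type and less RNA per cell cannot be told apart.

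Sequences around the RefSeq transcription starts (GRCm38.p6, the build of the files) were matched for 8 of the 10 genes. Each window held 250 bases before and 50 after the start, and the 300 bases were searched on both strands for TTCNNNGAA, the STAT half-site pair, for TGANTCA, the AP-1 motif, and for TATAAA. No match of one motif overlapped another in the windows shown. TTCNNNGAA was found in 1 of the 8 windows, TGANTCA in 2 and TATAAA in 1, against 8.30%, 7.81% and 13.6% of all 32851 windows of the same length. The windows of 3 reactivity genes are shown, because Vim varied across libraries together with Gfap and with Osmr, as the first 260 bases of each window 5′ to 3′ on the gene's strand and the matched motif in capitals.
Gfap, chr11:102897191-102897450, minus strand: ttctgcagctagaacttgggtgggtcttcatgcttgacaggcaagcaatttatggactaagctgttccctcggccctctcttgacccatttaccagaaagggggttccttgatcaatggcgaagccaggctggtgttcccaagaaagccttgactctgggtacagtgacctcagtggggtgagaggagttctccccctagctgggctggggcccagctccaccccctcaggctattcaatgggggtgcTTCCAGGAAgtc
Vim, chr2:13574061-13574320, plus strand: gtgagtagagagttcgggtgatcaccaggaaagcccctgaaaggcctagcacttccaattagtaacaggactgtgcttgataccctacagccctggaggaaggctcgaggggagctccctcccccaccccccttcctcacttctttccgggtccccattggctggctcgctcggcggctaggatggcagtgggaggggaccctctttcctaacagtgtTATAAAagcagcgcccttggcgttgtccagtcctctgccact
Osmr, chr15:6874304-6874563, minus strand: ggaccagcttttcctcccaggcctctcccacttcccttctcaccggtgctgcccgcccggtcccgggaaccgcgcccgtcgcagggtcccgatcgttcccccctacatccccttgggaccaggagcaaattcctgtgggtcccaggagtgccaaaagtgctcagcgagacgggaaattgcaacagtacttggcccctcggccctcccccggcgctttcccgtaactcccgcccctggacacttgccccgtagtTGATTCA
The Gfap match was a STAT motif that spans the annotated start. The Vim match was a TATA motif at base 219 and the Osmr match an AP-1 motif just after the start. The other AP-1 match was in Gja1, at base 232. None of these motifs was found in the windows of Aldh1l1, S100b, Serpina3n and Cd44. A match describes the letters only, and binding was not measured.

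Total counts per library ranged from 12207161 to 29109990, and every library of series 1 (21015275 to 29109990) was deeper than every library of series 2 (12207161 to 17697342). Values are given as normalised CPM, counts scaled to a common library total after upper-quartile normalisation. All 20 other homeostatic astrocyte markers were counted in every library, 18 of them with at least 100 counts in each. Xist ranged from 319 to 1396 CPM in females and reached at most 7.82 CPM in males, Ddx3y was at 156 or above in males and at most 1.68 in females except CD female E228 (14.1), and mouse Apoe was at 1.40 to 3.27 CPM in all libraries. Markers of neighbouring tissue were unevenly spread. The summed level of the striatal markers was 1121 to 3588 CPM in 5 libraries (KD male E59, KD females E207, E61 and E68, and CD female E249) and 230 to 594 CPM in the other 15. The summed level of the choroid plexus markers was 2374 CPM in E59 and at most 68.2 CPM elsewhere, and that of the meningeal fibroblast markers was 1708 CPM in KD male E64 and at most 861 CPM elsewhere.

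Every one of the 10 genes was measured in every library, from 35 counts for the lowest value of Cd44 to 8469 for the highest of Aqp4. Compared per kilobase of annotated exon, S100b was the highest on average over the 20 libraries (95.2 CPM per kb), followed by Aqp4 (33.6), Gfap (24.3), Gja1 (18.8), Aldh1l1 (10.2), Vim (5.92), Serpina3n (5.92), Sox9 (3.71), Cd44 (1.16) and Osmr (0.763). Of neighbours in this order, Aqp4 and Gfap, Gfap and Gja1, Vim and Serpina3n, Serpina3n and Sox9, and Cd44 and Osmr lay closer than the sum of their SDs over the libraries. The 5 identity genes thus spanned from 3.71 to 95.2 CPM per kb and the 5 reactivity genes from 0.763 to 24.3. Variation across the 20 libraries was smallest for S100b, whose highest value was 1.80 times its lowest, and for Gja1 (2.01 times). It was widest for Cd44 (13.0 times) and Serpina3n (4.43 times).

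**Figure D1:**
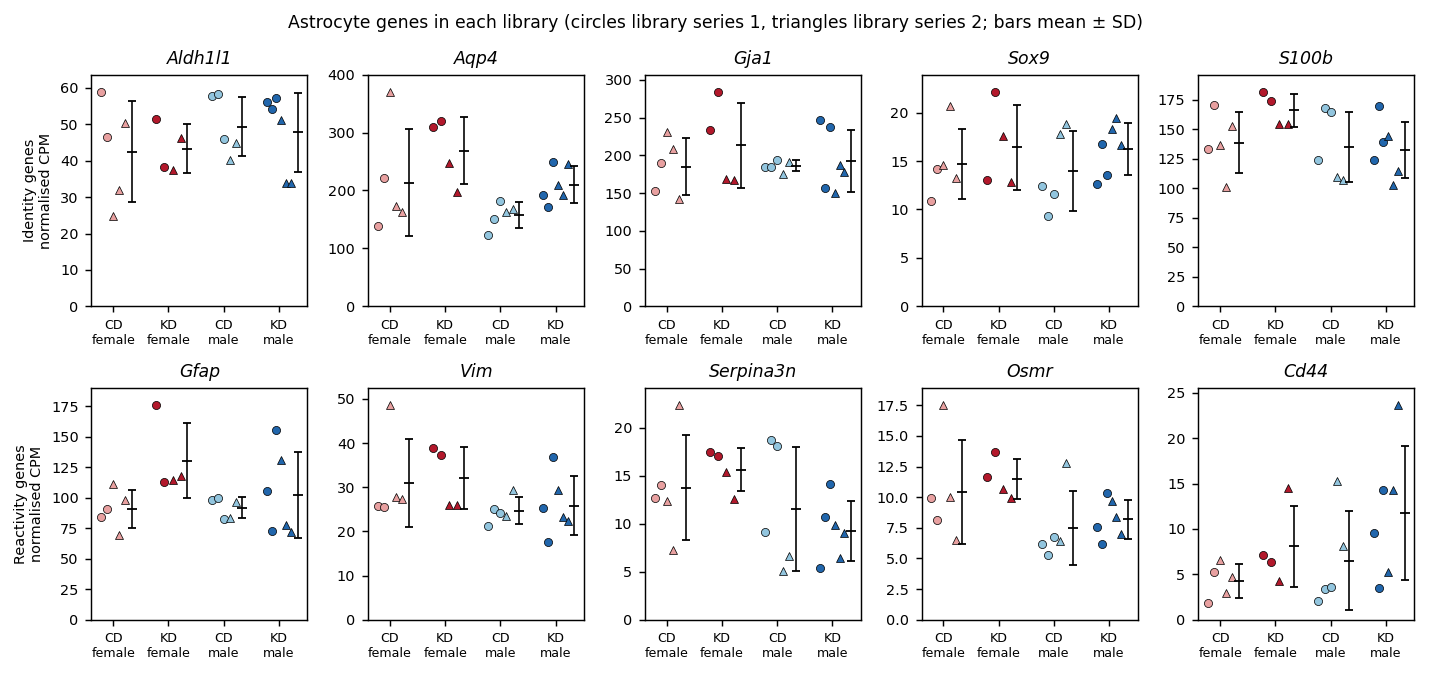
Level of each gene in every library, in normalised CPM, by diet and sex. Points are libraries (circles series 1, triangles series 2), and bars give the mean ± SD of the group. Gfap is the gene whose KD females (113 to 176 CPM) all lie above the CD females (69.4 to 111 CPM).

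To ask whether the diet altered astrocyte genes, KD was compared with CD in females, in males and over both sexes in one edgeR quasi-likelihood fit of all 15660 genes tested, with library series as a covariate. A gene was called at an adjusted p of at most 0.1 and a change of at least 1.5-fold. None of the 10 genes was called in any of these comparisons, and the smallest adjusted p was 0.357 in females (Gfap), 1.0 in males and 0.192 over both sexes (Cd44). Calls were rare among all genes as well, at 0.0447% of genes in females, 0.0% in males and 0.268% over both sexes. At an unadjusted p under 0.05, 1 of the 10 genes was found in females, 1 in males and 3 over both sexes, against 11.4%, 3.56% and 13.9% of all genes. The estimates were above 0 for 10 of 10 genes in females and for 8 of 10 in males, against 52.7% and 49.1% of all genes. This was not particular to astrocyte genes. In females all 10 oligodendrocyte, all 10 microglial and all 10 tested striatal markers were above 0 too, while 9 of 10 cortical excitatory neuron markers were below 0. The median estimate (log2 scale) was 0.22 in females and 0.062 in males for the identity genes and 0.19 and 0.14 for the reactivity genes, while over all genes tested the medians were 0.013 and -0.0030.

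**Figure D2:**
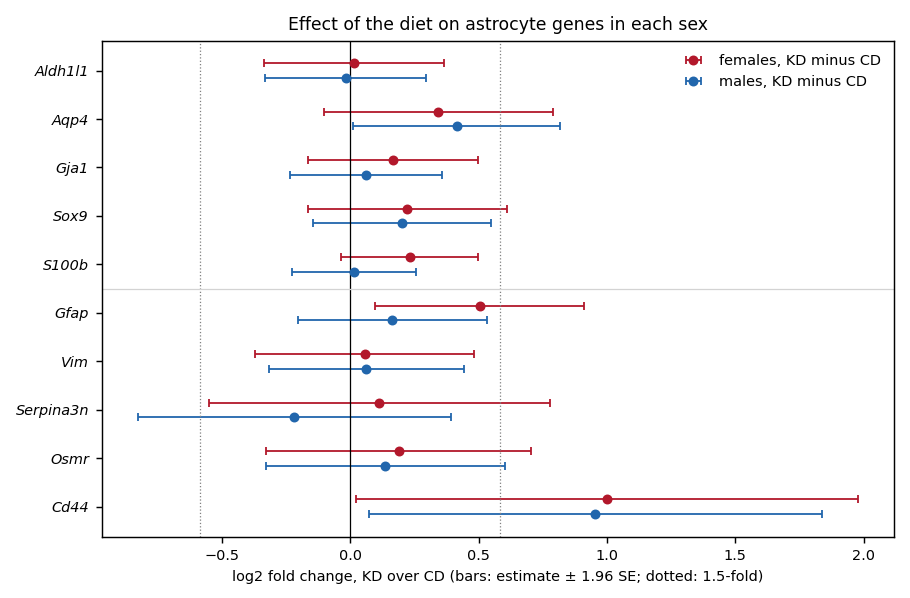
Fitted log2 fold change of KD over CD for each gene in females (red) and males (blue), with approximate 95% intervals as bars and dotted lines at a 1.5-fold change. The bars are narrower than the edgeR test implies. They start at 0.022 for Cd44 in females and 0.012 for Aqp4 in males, where the unadjusted p was 0.0595 and 0.0581 (edgeR). The largest estimates are those of Cd44 (1.0 and 0.96) and, in females, Gfap (0.50). No gene passed the adjusted threshold.

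Gfap, the classical filament protein of reactive astrocytes (chr11:102887336-102900912, minus strand, in the mm10 build used throughout), was at 69.4, 84.4, 90.5, 97.9 and 111 CPM in CD females. In KD females it was at 113, 115, 118 and 176 CPM. The groups did not overlap, although the highest CD female (E249, 110.9 CPM) lay just under the lowest KD female (E68, 113.2 CPM), and the top value came from E61 alone. Groups without overlap and with KD higher made up 1.12% of all genes in females. The mean was 90.6 ± 15.4 CPM (SD, n = 5) in CD and 130 ± 30.4 (SD, n = 4) in KD females. The fitted log2 fold change was 0.50 (SE 0.21, unadjusted p = 0.0255, adjusted p = 0.357, edgeR), a fold of 1.42. An exact two-sided permutation test of the log2 values, which took no account of library series, gave p = 0.0159. The smallest possible was 0.00794 and the value adjusted over 20 tests was 0.159. Gfap was higher in KD females within both library series. The estimate was 0.72 (SE 0.31) in series 1, with 2 CD and 2 KD females. It was 0.33 (SE 0.27) in series 2, with 3 CD and 2 KD females. In series 1 both KD females, E61 and E68, were rich in striatal markers and neither CD female was. Diet and striatal level therefore cannot be told apart in females of that series.

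In males, Gfap was at 82.3, 83.3, 96.0, 97.9 and 99.7 CPM in CD mice and ranged from 71.7 over a median of 91.4 to 155 CPM in KD mice. The KD males lay on both sides of the CD males, so the groups overlapped. The fitted log2 fold change was 0.16 (SE 0.19), and the difference between the sexes was 0.34 (SE 0.28, unadjusted p = 0.241, adjusted p = 1.0), so a sex difference in the effect was not shown. None of the 10 genes was called for this interaction, nor was any gene at all (0.0% of genes, with 335 at an unadjusted p under 0.05). The 155 CPM came from E64, the male with the highest meningeal fibroblast markers and, at 1462 CPM, the lowest summed oligodendrocyte markers of the 20 libraries. Without E64 the male estimate was 0.0036. The part of these markers in the Gfap values was not tested.

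No striatal or cortical excitatory neuron marker was called for the diet in females (smallest adjusted p 0.281 and 0.185). All 10 tested striatal markers had estimates above 0 (median 2.10 on the log2 scale), and 9 of 10 cortical excitatory neuron markers had estimates below 0 (median -0.69). Striatal markers reached a summed 300 to 2926 CPM in KD females and 251.2 to 1121 CPM in CD females, and these ranges overlapped. With the log2 striatal level as a covariate, the Gfap estimate was 0.59 (SE 0.25, unadjusted p = 0.0272, adjusted p = 0.746) in females, and that of Aqp4 was 0.098 (SE 0.25) in place of 0.34.

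Aqp4 (chr18:15389496-15410982, minus strand) was at 139, 163, 172, 222 and 370 CPM in CD females and at 197, 248, 310 and 319 CPM in KD females. The highest value of all 20 libraries was in a CD female, E249, so the diet groups overlapped. In males Aqp4 was at 123, 151, 163, 167 and 182 CPM on CD and ranged from 171 over a median of 201 to 249.4 CPM on KD. Here 5 of 6 KD males lay above all CD males, and only E59 (171 CPM) fell among them. The estimates were 0.34 (SE 0.23) in females and 0.41 (SE 0.21, unadjusted p = 0.0581) in males, and over both sexes 0.38 (SE 0.15, unadjusted p = 0.0225, adjusted p = 0.259, edgeR). The exact permutation test in males, again without account of library series, gave p = 0.0108. The smallest possible was 0.00216 and the adjusted value was 0.159.

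The Aqp4 result in females depended on E249. Without that library the female estimate was 0.62 with an adjusted p of 0.0402 (edgeR), which passed both limits. Without E249 and KD female E227 together it was 0.74 with an adjusted p of 0.00604. Calls among all genes in females rose in these fits too, to 1046 and 1953, against 7 in the main fit. With both libraries left out, diet and striatal level cannot be told apart in females. E249 was also one of the 5 libraries rich in striatal markers, as were the 3 KD females with the highest Aqp4, and Aqp4 was at 171 to 370 CPM in those 5 libraries and at 123 to 249.4 CPM in the other 15. With the striatal level as a covariate the female Aqp4 estimate was 0.098 (SE 0.25), as given above. The part of the neighbouring tissue in these values was not tested further. Within the library series the female estimate was 0.80 (SE 0.25, adjusted p = 0.129) in series 1 and -0.077 (SE 0.31) in series 2. As for Gfap, diet and striatal level cannot be told apart in the females of series 1. Over both sexes, Aqp4 was higher on KD by 0.61 in series 1 (SE 0.16, adjusted p = 0.0695), past both limits, while in series 2 the estimate was 0.15 (SE 0.22). All genes called over both sexes numbered 886 in series 1 alone and 0 in series 2 alone, against 42 in the main fit.

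Cd44 (chr2:102811141-102901665, minus strand) had the largest estimates of the 10 genes and also the largest spread. It was at 1.82, 2.98, 4.68, 5.27 and 6.62 CPM in CD females and at 4.29, 6.40, 7.18 and 14.5 CPM in KD females. In males it was at 2.03, 3.35, 3.64, 8.16 and 15.3 CPM on CD and ranged from 3.45 over a median of 11.9 to 23.6 CPM on KD. The diet groups overlapped in both sexes, and the 5 highest values were in 3 KD males, 1 CD male and 1 KD female. The mean was 4.27 ± 1.90 CPM (SD, n = 5) in CD females, 8.09 ± 4.44 (SD, n = 4) in KD females, 6.49 ± 5.43 (SD, n = 5) in CD males and 11.7 ± 7.36 (SD, n = 6) in KD males. The fitted log2 fold change was 1.0 (SE 0.50) in females, 0.96 (SE 0.45) in males and 0.98 over both sexes (SE 0.34, unadjusted p = 0.00911, adjusted p = 0.192, edgeR). Over both sexes the edgeR likelihood ratio test gave an adjusted p of 0.0935 and DESeq2 one of 0.0756, which passed both limits, and so did the main test without E249 (0.0957). Calls among all genes rose in these fits too, to 370, 351 and 791, against 42 in the main fit. Within library series 1 the estimate over both sexes was 1.26 (SE 0.40) and within series 2 it was 0.64 (SE 0.45). The 8 meningeal fibroblast markers had estimates above 0 in both sexes, with medians of 0.34 in females and 0.74 in males on the log2 scale, and their part in Cd44 was not tested. With the striatal level as a covariate Cd44 was at 1.19 over both sexes (SE 0.36, adjusted p = 0.364).

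The other reactivity genes showed no diet difference beyond their spread. Vim (chr2:13573927-13582826, plus strand) was at 25.4 to 48.6 CPM in CD females and 25.9 to 38.8 in KD females, with a log2 fold change of 0.056 (approximate 95% interval -0.37 to 0.48) in females and 0.063 (-0.32 to 0.44) in males, so that a 1.5-fold change lay outside both intervals. These intervals are from the fit of both series. In females Vim was at 0.57 (SE 0.27) in series 1 and -0.41 (SE 0.26) in series 2, so they do not speak for each series. The series 1 value cannot separate diet from striatal level. Serpina3n (chr12:104406729-104414329, plus strand), one of a cluster of related genes, was at 0.11 (-0.55 to 0.78) in females and -0.22 (-0.83 to 0.39) in males. Whether reads were shared between genes of the cluster was not measured. Osmr (chr15:6813577-6874969, minus strand) was at 0.19 (-0.33 to 0.70) and 0.14 (-0.33 to 0.60). The intervals of Serpina3n and Osmr include 1.5-fold changes.

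Among the identity genes, Aldh1l1 (chr6:90486427-90600203, plus strand) had means of 42.5 ± 13.9 CPM (SD, n = 5) in CD females, 43.4 ± 6.72 (SD, n = 4) in KD females, 49.4 ± 8.19 (SD, n = 5) in CD males and 47.8 ± 10.9 (SD, n = 6) in KD males. Its log2 fold change was 0.015 (approximate 95% interval -0.33 to 0.36) in females and -0.018 (-0.33 to 0.30) in males. Gja1 (chr10:56377330-56402513, plus strand) was at 0.17 (-0.17 to 0.50) and 0.062 (-0.23 to 0.36). Its 5 CD males lay within 175 to 194 CPM, whereas the KD males spread from 149 to 247 CPM. Sox9 (chr11:112782224-112787760, plus strand) was at 0.22 (-0.16 to 0.61) and 0.20 (-0.14 to 0.55). S100b (chr10:76253853-76261159, plus strand) was at 0.23 (-0.034 to 0.50) and 0.015 (-0.23 to 0.26), with 4 KD females at 154 to 182 CPM and the 5 CD females at 101 to 170. In the fit of both series, a 1.5-fold change lay outside the intervals of Aldh1l1, Gja1 and S100b in both sexes. The series were unlike for Gja1 in females, at 0.59 (SE 0.21) in series 1 and -0.20 (SE 0.19) in series 2. Its interval therefore does not speak for each series. As for Vim, the series 1 value cannot separate diet from striatal level.

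Females were also compared with males over both diets. None of the 10 genes was called, against 0.134% of all genes, and the smallest adjusted p was 0.264 (Osmr). At an unadjusted p under 0.05 were 5 of the 10 genes, all with higher estimates in females, against 13.6% of all genes. Of these, 3 were reactivity genes, Serpina3n at a log2 difference of 0.59 (SE 0.23, unadjusted p = 0.0202), Osmr at 0.48 (SE 0.18, unadjusted p = 0.0141) and Vim at 0.32 (SE 0.15, unadjusted p = 0.0417). The others were Aqp4 at 0.39 (SE 0.15, unadjusted p = 0.0179) and S100b at 0.22 (SE 0.092, unadjusted p = 0.0257). All 10 striatal markers had estimates above 0 for females against males (median 1.09), with 3 at an unadjusted p under 0.05 and none called (smallest adjusted p 0.248). With their level as a covariate none of the 5 was at an unadjusted p under 0.05 (edgeR). The differences were 0.50 for Serpina3n (unadjusted p = 0.0685), 0.41 for Osmr (0.0616) and 0.27 for Vim (0.136). They were 0.22 for Aqp4 (0.199) and 0.16 for S100b (0.112).

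The values behind the sex comparison differed between library series for Serpina3n. It was at 7.23, 12.3, 12.7, 14.1 and 22.4 CPM in CD females and at 12.6, 15.4, 17.1 and 17.5 CPM in KD females. In CD males it was at 5.05, 6.67, 9.11, 18.1 and 18.7 CPM, and in KD males it ranged from 5.38 over a median of 9.48 to 14.1 CPM. Males and females overlapped. The female minus male difference was 0.99 (SE 0.29) in series 2 and 0.29 (SE 0.27) in series 1. Osmr was at 6.50, 8.15, 9.97, 10.0 and 17.5 CPM in CD females, at 9.93, 10.7, 11.7 and 13.7 in KD females and at 5.30, 6.20, 6.39, 6.74 and 12.8 in CD males, and in KD males it ranged from 6.18 over a median of 7.97 to 10.4 CPM. Females and males overlapped here too, with E249 the highest CD female and E264 the highest CD male.

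Across the 20 libraries, several of the genes varied together. Pearson's r and Spearman's rho of log2 CPM were computed for all 45 pairs after centring within library series, with 100000 permutations and Benjamini-Hochberg adjustment. An adjusted p of r under 0.05 was found for 10 pairs, and all of these kept their sign within both series. S100b and Serpina3n were at r = 0.82 (rho = 0.78, permutation p = 1e-05, the smallest these permutations can give, adjusted p = 0.00045 for r and 0.00202 for rho), and r was 0.81 without the 2 libraries farthest from the median of S100b. Vim and Osmr were also at r = 0.82 (rho = 0.80, permutation p = 2e-05, adjusted p = 0.00045 for r and 0.00202 for rho), and at 0.73 without the 2 farthest. Gfap and Vim, which co-assemble into filaments, were at r = 0.69 (rho = 0.63, permutation p = 0.00085, adjusted p = 0.00765 and 0.0471), and at 0.56 without E61 and E64.

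Aqp4, Gja1, Vim and Osmr made up a set in which all 6 pairs passed. Besides Vim with Osmr, r was 0.73 for Aqp4 with Vim, 0.69 for Aqp4 with Osmr, 0.66 for Aqp4 with Gja1, 0.66 for Gja1 with Vim and 0.61 for Gja1 with Osmr, with permutation p from 0.00022 to 0.00502 and adjusted p from 0.0033 to 0.0226. The matching rho ranged from 0.49 to 0.61, with adjusted p from 0.0471 to 0.097. Without the 2 libraries farthest from the median, E249 and E68 in each of these 5 pairs, r fell to between 0.38 and 0.54. The last 2 pairs were negative. Aldh1l1 was at r = -0.65 with Gja1 (rho = -0.61, permutation p = 0.00207, adjusted p = 0.0116 and 0.0471) and at -0.61 with Aqp4 (rho = -0.50, permutation p = 0.00394, adjusted p = 0.0197 and 0.0925), and without E249 and E68 these were -0.43 and -0.29. The relation of Aldh1l1 with Aqp4 thus rested largely on those libraries. The identity genes did not vary as a block, since Aldh1l1 ran against Gja1 and, with the limit just given, against Aqp4. Aldh1l1 and Gja1 also varied in opposite directions with the GC content of the libraries, as described below.

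**Figure D3:**
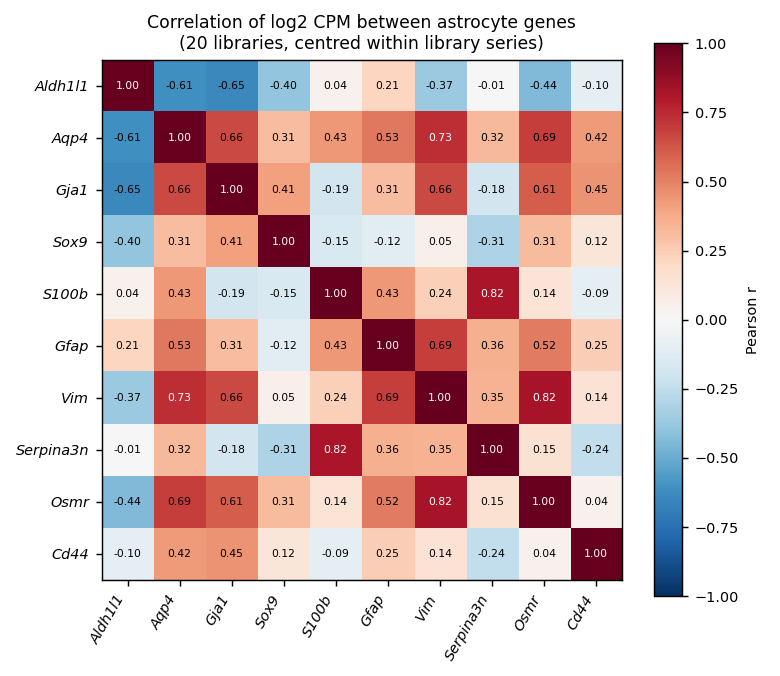
Pearson's r of log2 CPM between each pair of the 10 genes over 20 libraries, centred within library series (red positive, blue negative). Vim with Osmr and S100b with Serpina3n stand at 0.82, and Aldh1l1 is negative with Gja1 (-0.65) and Aqp4 (-0.61).

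The levels were then set against the GC content of the libraries. For each library a GC slope was computed over 11919 genes, as the log2 change of a gene's level from its mean per 10 percentage points of transcript GC content, and it ranged from -0.60 in CD female E249 to 0.50 in KD male E64. Aldh1l1 followed this slope closely, at r = 0.92 (rho = 0.90, permutation p = 1e-05, the smallest these permutations can give, adjusted over the 10 genes 0.0001) after centring within series, 0.86 without the 2 farthest libraries, and 0.87 and 0.97 within series 1 and 2. It was at 24.9 CPM in E249 and 31.9 CPM in E265, the libraries of lowest slope, and at 57.4 CPM in E64. Gja1 ran the other way at r = -0.57 (rho = -0.51, permutation p = 0.00846, adjusted p = 0.0423 for r and 0.121 for rho), and r was -0.31 without the 2 farthest. The other 8 genes had adjusted p of 0.153 or above, among them Aqp4 at r = -0.45 (-0.061 without the 2 farthest). Transcript GC content was 54.4% for Aldh1l1, 55.5% for Gfap, 51.9% for Serpina3n, 42.2% for Gja1 and 41.4% for Aqp4. Gfap, with the highest GC content of the 10, was at r = 0.35 with the slope (rho = 0.45, permutation p = 0.134 for r and 0.046 for rho, adjusted p = 0.236 and 0.153), and at 0.60 without the 2 farthest libraries. What sets the slope of a library was not tested, nor was its part in the negative correlations of Aldh1l1 with Gja1 and Aqp4. With the slope as a covariate, the SE of Aldh1l1 in females fell from 0.18 to 0.082 and its log2 fold change was -0.031.

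**Figure D4:**
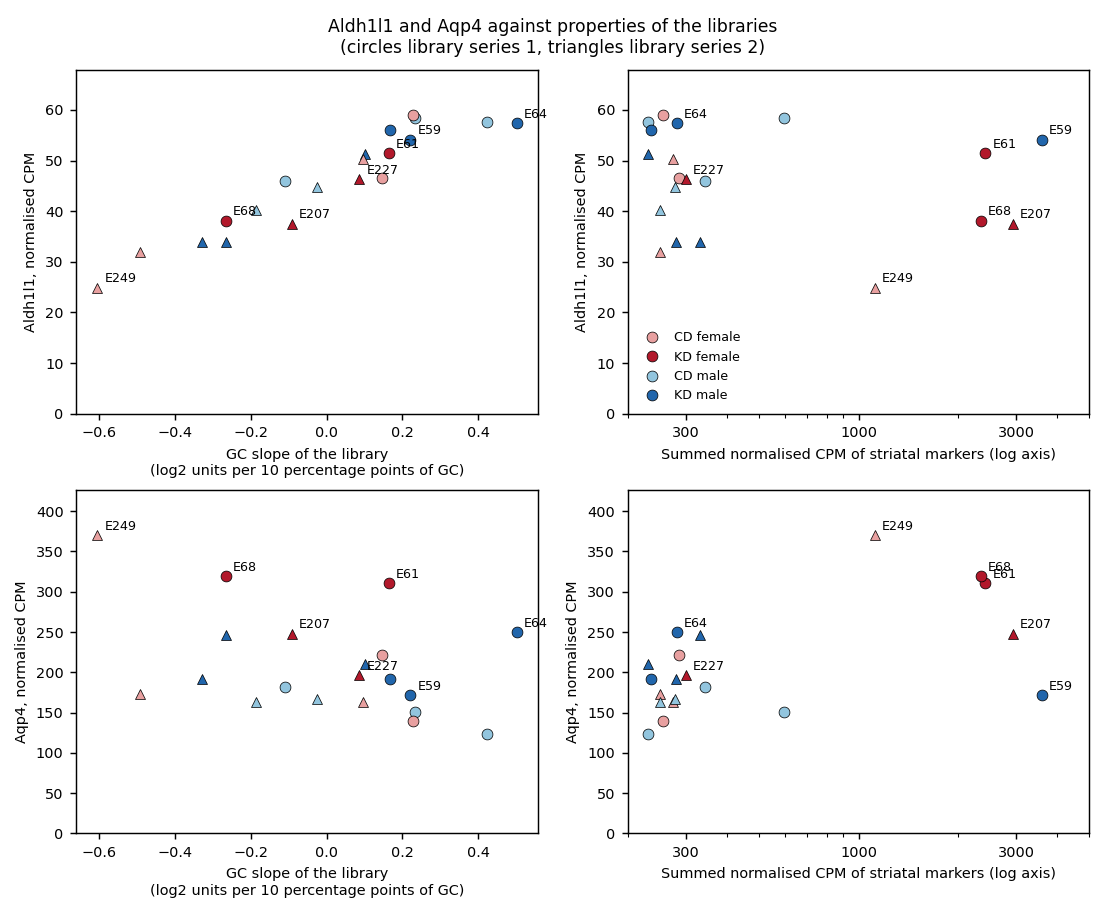
Level of Aldh1l1 (top) and Aqp4 (bottom) in each library against the GC slope of the library (left) and the summed level of striatal markers on a log axis (right), coloured by group. Aldh1l1 climbs with the GC slope from 24.9 CPM (E249) to 46.5 CPM or more at slopes above 0.1, and the 3 highest Aqp4 values (E249, E68 and E61) lie among the 5 libraries rich in striatal markers.

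For each of the 10 genes the 3 tested genes with the most similar pattern were found by Pearson's r of log2 CPM over the 20 libraries after removal of group and series means, as a description without a test. For Aldh1l1 they were Flywch1 (0.98), Fbxo31 (0.97) and Tecr (0.97), and for Aqp4 Klhl5 (0.94), Fkbp14 (0.93) and Tnfaip8 (0.93). Gja1 was most like Mettl14 (0.90), Npas3 (0.89) and Hspe1 (0.89), Sox9 most like Ccdc90a (0.86), Pabpc1 (0.83) and Ppargc1a (0.81), and S100b most like Il10ra (0.87), 1700003M02Rik (0.86) and Inpp5d (0.84). The gene Inpp5d, a lipid phosphatase, and Il10ra, an interleukin receptor chain, are known from microglia. Gfap was most like March3 (0.88), Slc6a12 (0.85) and P2rx5 (0.85). Vim was most like H2-Ab1 (0.93), an MHC class II chain, with Ddr2 (0.90) and Ctbp2 (0.90), and Osmr most like Cped1 (0.91), Cp (0.89) and Cyp1b1 (0.89). Serpina3n was most like Fam216b (0.90), Npc2 (0.80) and Erich1 (0.79), and Cd44 most like Angpt1 (0.94), Dsc3 (0.86) and Kctd4 (0.86). All of these points share depth, GC slope and tissue composition.

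Other astrocyte genes were counted by list. Of 20 other homeostatic astrocyte genes, none was called in any comparison, and 15 had estimates above 0 in females (median log2 fold change 0.17) and 12 in males (median 0.0086). The smallest p in females belonged to Mlc1, a membrane protein of astrocyte endfeet, at 0.31 (SE 0.10, unadjusted p = 0.00612, adjusted p = 0.24), and in males to Glul, glutamine synthetase, at -0.14 (SE 0.075, unadjusted p = 0.0781). Of 7 genes of the dystrophin complex and its partners, which anchors Aqp4 at endfeet, 5 had estimates above 0 in females (median 0.15) and 5 in males (median 0.11). None was called, and Dmd, the dystrophin gene, had the smallest p in both sexes at -0.39 (SE 0.13, unadjusted p = 0.00852, adjusted p = 0.26) and -0.18 (SE 0.12).

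Reactive lists gave no call either. Of 8 further pan-reactive genes, 7 had estimates above 0 in females (median 0.32) and 3 in males (median -0.13). Cxcl10, an interferon-induced chemokine, had the smallest p in females at 1.32 (SE 0.56, unadjusted p = 0.0293, adjusted p = 0.37), and Lcn2, an iron-siderophore carrier, in males at -2.18 (SE 0.84, unadjusted p = 0.0176). Both genes were near the floor. Cxcl10 had a mean of 0.328 CPM in CD females and 0.788 CPM in KD females. Lcn2 had a mean of 0.842 CPM in CD males (0.0 to 2.24 CPM) and 0.189 CPM in KD males. Of 13 genes named A1, the set linked to inflammatory stimuli, 12 had estimates above 0 in females (median 0.43) and 8 in males (median 0.10), led by the complement gene C4b at 0.51 (SE 0.21, unadjusted p = 0.0271, adjusted p = 0.36) in females and C3 at -1.19 (SE 0.62) in males. Of 8 tested A2 genes, the set linked to ischaemia, 6 had estimates above 0 in each sex (medians 0.066 and 0.083), with Ptgs2 at -0.46 (SE 0.28) in females and B3gnt5 at 0.52 (SE 0.29) in males. Many A1 genes are expressed by microglia too, and all 10 microglial markers had estimates above 0 in females (median 0.42), with summed levels of 384 to 538 CPM in KD females and 320 to 416 CPM in CD females. Their part in the A1 values was not tested.

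Of the oncostatin M, JAK and STAT genes, 12 of 14 were tested and none was called. The estimates were above 0 for 7 in females (median 0.066) and 8 in males (median 0.065). Stat3 was at 0.33 (SE 0.14, unadjusted p = 0.0297, adjusted p = 0.37) in females and 0.10 (SE 0.13) in males, Jak1 at -0.18 (SE 0.083, unadjusted p = 0.0415) in females, and Lif, a cytokine of the family, at 0.40 (SE 0.36) in males. The 3 filament partners Nes, Synm and Plec lay near 0, with Synm at -0.11 (SE 0.10) in females and Nes at 0.10 (SE 0.20) in males. In the comparison of females with males Amigo2, an A1 gene, had the smallest p of these astrocyte lists, at 0.79 (SE 0.20, unadjusted p = 0.000993, adjusted p = 0.145).

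The means of the log2 values over each set of 5 genes place the libraries on a plane of identity and reactivity. The identity mean was 6.16 to 6.43 in CD females, 6.30 to 6.73 in KD females, 6.18 to 6.31 in CD males and 6.24 to 6.52 in KD males. The reactivity mean was 3.75 to 4.58, 4.21 to 4.66, 3.59 to 4.19 and 3.64 to 4.71 in the same order. KD female E68 had the highest identity mean, KD male E64 the highest reactivity mean, and CD male E51 the lowest reactivity mean. The ratio of Gfap to Aldh1l1 was 1.43 to 4.45 in CD females and 2.55 to 3.42 in KD females, and the 4.45 came from E249, where Aldh1l1 was lowest.

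**Figure D5:**
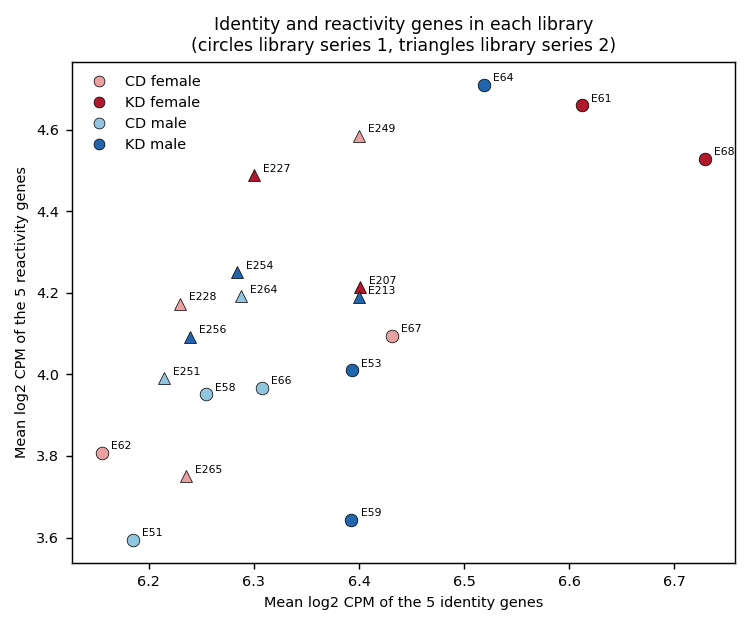
Mean log2 CPM of the 5 reactivity genes against that of the 5 identity genes in each library, labelled by animal number. E64, E61, E249 and E68 have the highest reactivity means (4.53 to 4.71), and the groups overlap on both axes.

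Groups without overlap were otherwise not seen among the 10 genes. No gene was lower in all KD females than in all CD females, against 0.69% of all genes, and none separated the diets in males, against 0.102% of all genes with KD higher and 0.14% with KD lower. Another annotated gene overlaps 5 of the 10 genes, on the opposite strand for Aqp4, S100b, Gfap and Cd44 and on both strands for Aldh1l1. The kit keeps strand, but whether the counting used it was not given in the sources used here.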

How the data were processed

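Cortical RNA of 20 mice was sequenced with 1 library per mouse (TruSeq Stranded Total RNA Gold, paired-end reads). The authors aligned reads to mm10 with STAR and deposited raw counts per gene and library. Versions, annotation and strand setting were not given in the sources used here. No row lacked a gene name. The authors tested with upper-quartile scaling, RUVg and edgeR, and the number of RUVg factors was not stated, so library series stood in its place.

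Counts were filtered with filterByExpr, scaled by upper quartile and fitted with edgeR 4.0.16 (R 4.3.3, robust quasi-likelihood test) on 4 groups plus library series, with Benjamini-Hochberg adjustment over 15660 genes. A call needed an adjusted p of at most 0.1 and a change of at least 1.5-fold. Log2 CPM used a prior count of 2. Exact permutation tests and correlations used scipy 1.17.1. Locations came from GENCODE M21 for GRCm38, to which 21777 of 23413 names matched. The script was tested on simulated data. Alternatives were DESeq2 1.42.0, the edgeR likelihood ratio test, other scalings, filters and thresholds, and RUVg with 1 or 2 factors. Further ones were each sex or library series alone, leaving out each library, and leaving out E249 with E227. Chosen after seeing the data were leaving out E59 with E228 and adding the GC slope or the striatal level as a covariate. The GC slope used genes with a mean count of at least 50.

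The 10 genes and the lists were chosen with earlier results of these data known. The text names the 10 genes, every called gene of a list or else its gene of smallest p in each sex, and the 3 genes most like each of the 10. Jak1 and Amigo2 were added after their values were seen. Mice are the replicates, and the labels give no litter or cage. Animal numbers are not shared between groups, so no pairing was used.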

Additional observations from a re-analysis of the deposited data

Results flagged for a closer look

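Among 40 groups of one gene, diet and sex, 3 held a library far from the others by Dixon's ratio of the gap to the group's range, where chance would give about 2 (1 in 20 groups). Gfap in KD females was at 176 CPM in E61 and at 118 CPM in the next library, a ratio of 0.924. Vim in CD females was at 48.6 CPM in E249 and at 27.7 CPM in the next, a ratio of 0.901. Osmr in CD males was at 12.8 CPM in E264 and at 6.74 CPM in the next, a ratio of 0.807. E61 and E249 were among the 5 libraries rich in striatal markers (2420 and 1121 CPM), and E264 had the highest summed meningeal fibroblast markers of the CD males (861 CPM). Beyond the fits with the striatal level as a covariate, the part of these markers in the values was not tested.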

How the results depend on the processing

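No gene among the 10 was called in males, for the interaction or between the sexes under any setting tried. In females 2 were called without E249 and E227 together (Aqp4 and Gfap), a fit in which diet and striatal level cannot be told apart. Leaving out 1 library gave 0 to 1 in females. Over both sexes 1 was called in library series 1 alone (Aqp4), 1 by the edgeR likelihood ratio test and 1 by DESeq2 (Cd44), and leaving out 1 library gave 0 to 1. All genes called in females numbered 7 in the main fit, 12 without the filter, 4 without the series term or without E59 and E228, 57 and 204 with 1 and 2 RUVg factors, 220 by the likelihood ratio test, 253 by DESeq2, 259 with the GC slope, 0 with the striatal level, 865 and 0 in series 1 and 2, 1 with the sexes apart, 2 at an adjusted p of 0.05 with no fold limit, 1953 without E249 and E227, and 0 to 1046 with 1 library left out (the highest without E249). Over both sexes 42 genes were called, with 225 and 297 under RUVg, 370 by the likelihood ratio test, 351 by DESeq2, 389 with the GC slope, 1 with the striatal level, 886 and 0 in series 1 and 2, 2 without E59 and E228, 3 at an adjusted p of 0.05, 1249 without E249 and E227 and 2 to 791 with 1 library left out. Females against males gave 21 genes, with 4 to 516 under the other settings and 8 to 813 with 1 library left out. The interaction gave 0 genes, with up to 568 without E249 and E227 and up to 41 with 1 library left out.

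The sign changed for these log2 fold changes. In females Aldh1l1 was at -0.24 in series 1, -0.21 without E249 and E227, and -0.031 with the GC slope. In series 2 females Aqp4 was at -0.077, Gja1 at -0.20, Sox9 at -0.085, Vim at -0.41, Serpina3n at -0.0050 and Osmr at -0.13. With 2 RUVg factors Vim was at -0.0082 and Serpina3n at -0.016 in females, and with the striatal level at -0.0097 and -0.053. In series 2 males Gja1 was at -0.10, Sox9 at -0.019, Vim at -0.087, Serpina3n at 0.52 and Osmr at -0.20. In males Aldh1l1 was at 0.043 in series 1 and 0.024 with the striatal level. S100b in males was at -0.025 without the series term, -0.017 and -0.016 with 1 and 2 RUVg factors, -0.084 in series 1, -0.033 without E59 and E228 and -0.014 with the striatal level. The interaction of Aqp4 was at 0.38 in series 1 and 0.33 without E249 and E227. Leaving out 1 library gave -0.11 to 0.15 for Aldh1l1, -0.042 to 0.38 for Sox9, -0.049 to 0.27 for Vim and -0.016 to 0.45 for Serpina3n in females, -0.093 to 0.031 for Aldh1l1, -0.0072 to 0.13 for Gja1, -0.047 to 0.072 for S100b and -0.090 to 0.16 for Vim in males, and -0.22 to 0.20 for the interaction of Aqp4. The cause was not tested. Gfap and Cd44 in both sexes, S100b in females and Aqp4 in males kept their sign under every setting tried, though Gfap in males fell to 0.0036 without E64. The estimates of Aqp4, Gfap and Cd44 over both sexes also kept their sign. Cd44 had the lowest count of the 10 genes in a library, at 35.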
